A study of Mus musculus with 9 samples.

Results

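The genes of the proteasome were compared between peptide-activated CD8 T cells of the R7-I, R7-II and R7-III clones, 3 in all. Members were the rows of the expression table whose gene symbol begins with Psma to Psmg followed by a digit, which gave 50 of 24060 genes. The 5 genes of the immunoproteasome and its activator (Psmb8, Psmb9, Psmb10, Psme1 and Psme2) were set against the other 45. The name pattern also takes in Psmc3ip, a protein of meiotic and homologous recombination that is no proteasome subunit, and Psme2b, a near copy of Psme2. Both are members by the rule and enter the counts over all members, and counts without them are given beside the first of these.

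Each clone came from a line of transnuclear mice. Such mice are made by transfer of the nucleus of a mature T cell, here 1 CD8 T cell specific for the ROP7 peptide of Toxoplasma gondii for each line, so the receptor is read from its endogenous loci and each line stands for a single clone. The mice were on a Rag2-proficient BALB/c background, and their ages are not given in the sources used here. Affinity for the peptide was ranked by the submitters as R7-I, then R7-III, then R7-II, and self-reactivity as R7-III, then R7-I, then R7-II. Splenocytes of all 3 lines received ROP7 peptide and mouse IL-2 overnight, and the cells that were CD3+ CD8+ H-2Ld-Rop7+ were taken by sorting and measured by polyA RNA sequencing in 3 biological replicates per clone. Other cells were therefore present during stimulation, and every library had seen both agents.

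The proteasome degrades proteins tagged with ubiquitin. Its 20S core is a barrel of alpha rings, which gate entry, and beta rings, which hold the proteolytic sites, and the 19S particle binds, unfolds and feeds substrates into it. Interferon gamma is known to induce the catalytic subunits Psmb8, Psmb9 and Psmb10, which replace Psmb5, Psmb6 and Psmb7 in newly assembled cores, and the activator PA28, built from Psme1 and Psme2, which favours release of peptides for MHC class I.

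The sequences around the start sites of the inducible genes and of their constitutive partners are shown because the results below turn on these pairs. For 42 of the 50 genes, RefSeq gave a promoter window on GRCm38.p6 of 250 bases before the start site and 50 after it. None was held for Psma8, Psmb1, Psmb2, Psmb7, Psmc3, Psmd3, Psmd7 and Psmg2. Capitals mark a match to any of 3 motifs searched on both strands, and positions count the start site as 0. The first motif was GAAANNGAAA, the core of the interferon-stimulated response element (ISRE). The second was TTCNNNGAA, the gamma-activated site (GAS) bound by STAT factors. The last was TGACNNNGC, the core of the antioxidant response element (ARE) bound by Nfe2l1 and Nfe2l2. The window of Psmb8 lies at chr17:34197945-34198244 on the plus strand and Psmb9 at chr17:34187281-34187580 on the minus strand, both in the MHC region. That of Psmb10 lies at chr8:105938343-105938642 on the minus strand, Psme1 at chr14:55578244-55578543 on the plus strand and Psme2 at chr14:55591052-55591351 on the minus strand. Those of the constitutive partners Psmb5 and Psmb6 lie at chr14:54617946-54618245 on the minus strand and chr11:70525107-70525406 on the plus strand.
Psmb8: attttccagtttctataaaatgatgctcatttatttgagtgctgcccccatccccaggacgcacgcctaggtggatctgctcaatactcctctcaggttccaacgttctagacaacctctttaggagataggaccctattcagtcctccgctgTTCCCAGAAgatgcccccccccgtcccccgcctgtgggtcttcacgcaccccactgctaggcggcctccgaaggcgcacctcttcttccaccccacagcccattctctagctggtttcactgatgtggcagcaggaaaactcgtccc
Psmb9: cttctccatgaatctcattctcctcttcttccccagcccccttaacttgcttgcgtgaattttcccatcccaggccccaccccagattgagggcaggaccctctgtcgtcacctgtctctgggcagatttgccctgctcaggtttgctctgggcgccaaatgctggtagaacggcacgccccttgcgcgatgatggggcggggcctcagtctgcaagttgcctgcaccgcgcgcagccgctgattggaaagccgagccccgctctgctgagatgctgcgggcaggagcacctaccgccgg
Psmb10: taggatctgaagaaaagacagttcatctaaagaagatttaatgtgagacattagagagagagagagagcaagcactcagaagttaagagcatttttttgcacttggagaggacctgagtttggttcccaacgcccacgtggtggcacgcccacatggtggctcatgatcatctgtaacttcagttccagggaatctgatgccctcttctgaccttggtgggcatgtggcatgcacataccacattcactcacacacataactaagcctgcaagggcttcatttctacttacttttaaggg
Psme1: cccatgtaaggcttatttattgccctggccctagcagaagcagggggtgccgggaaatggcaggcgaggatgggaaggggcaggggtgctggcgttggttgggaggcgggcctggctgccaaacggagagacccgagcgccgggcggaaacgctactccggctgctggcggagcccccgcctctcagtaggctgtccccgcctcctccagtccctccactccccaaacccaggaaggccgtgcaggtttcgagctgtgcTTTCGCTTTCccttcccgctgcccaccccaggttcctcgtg
Psme2: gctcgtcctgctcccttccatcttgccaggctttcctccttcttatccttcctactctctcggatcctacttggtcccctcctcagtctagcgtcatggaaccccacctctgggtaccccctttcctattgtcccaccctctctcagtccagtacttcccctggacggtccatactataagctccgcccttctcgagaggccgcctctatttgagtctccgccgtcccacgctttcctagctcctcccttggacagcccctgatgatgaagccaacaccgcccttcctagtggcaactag
Psmb5: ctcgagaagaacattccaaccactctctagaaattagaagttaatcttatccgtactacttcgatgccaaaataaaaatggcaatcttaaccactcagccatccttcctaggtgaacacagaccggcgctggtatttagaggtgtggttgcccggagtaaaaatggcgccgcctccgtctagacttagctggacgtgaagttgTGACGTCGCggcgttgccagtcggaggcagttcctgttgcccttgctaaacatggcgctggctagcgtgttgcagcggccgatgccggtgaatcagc
Psmb6: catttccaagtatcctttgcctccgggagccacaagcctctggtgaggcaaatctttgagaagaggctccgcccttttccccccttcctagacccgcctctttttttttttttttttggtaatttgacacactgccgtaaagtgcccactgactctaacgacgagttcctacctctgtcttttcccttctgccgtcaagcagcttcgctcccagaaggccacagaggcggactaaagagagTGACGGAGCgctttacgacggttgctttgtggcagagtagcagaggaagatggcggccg

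A GAS match stood at -97 to -89 in Psmb8, an ISRE match on the opposite strand at 9 to 18 in Psme1, and an ARE match at -47 to -39 in Psmb5 and at -9 to -1 in Psmb6. None of the 3 letter patterns was in the windows of Psmb9, Psmb10 and Psme2. RefSeq listed 2 windows for Psme2, and the one farther upstream is shown. Over the 42 genes with a window, a gene was counted if any of its windows matched. ISRE was in 5 genes (Psmb3, Psmd4, Psmd9, Psme1 and Psmg4), GAS in 3 (Psmb8, Psmd2 and Psmg1) and ARE in 6 (Psmb5, Psmb6, Psmc6, Psmd9, Psmd12 and Psme4). Among 32851 promoters of the same length, counted by window and not by gene, 3.44% held ISRE, 8.30% held GAS and 12.4% held ARE. A match is a description of these letters and not evidence of binding.

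Levels are given in TPM, a length-corrected share of transcripts scaled to the same total in each library, so levels of different genes can be set side by side. TPM keeps no read depth, so the depth behind each value was unknown and no counting interval is given. Between 13738 and 14434 genes were above 0 in a library, and libraries of 1 clone correlated at 0.992 to 0.997 across genes on the log2 scale. The labels give no source animal for each replicate, so p-values measure the spread between these libraries. In such bulk samples, fewer cells of a type and less RNA per cell cannot be told apart.

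Changes were tested with limma on log2(TPM + 1) over the 11330 genes with a maximum TPM above 1, at a Benjamini-Hochberg adjusted p of 0.01. Of the 50 proteasome genes, 49 were tested. The testis subunit Psma8 was below the filter, at 0.09 to 0.45 TPM. The thymic subunit Psmb11, at 0.36 to 1.10 TPM, passed it only through R7-II replicate 3. In TPM, the median of all genes tested was 0.17 higher in R7-II cells than in R7-I on the log2 scale, 0.12 higher in R7-II cells than in R7-III and 0.04 higher in R7-III cells than in R7-I. Values rescaled by the median of ratios, which sets these medians near 0, are therefore given as well for the counts of calls and for the genes described in most detail. The comparisons of R7-II with R7-I and with R7-III share the R7-II libraries.

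Among the immunoproteasome genes, Psmb10 and Psme2 moved in opposite directions in R7-II. Psmb10, the inducible trypsin-like subunit, was 67.5% higher in R7-II cells than in R7-I, whereas Psme2, the PA28 beta subunit, fell by 25.4%. Psmb10 was also 41.6% higher in R7-III cells than in R7-I. Against R7-III, Psme2 and Psmb9 were lower. Psmb8 and Psme1 passed the threshold in none of the 3 comparisons. Of the 5 genes, 1 was called higher and 1 lower in R7-II cells than in R7-I, where 40.6% of all genes tested were called higher and 15.5% lower. Against R7-III, 2 were lower, where 35.6% of all genes were higher and 18.0% lower, and in R7-III over R7-I 1 was higher, where 6.96% were higher and 1.45% lower.

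Psmb10 measured 22.82, 25.03 and 21.42 TPM in the R7-I libraries, 36.3, 38.2 and 41.6 TPM in R7-II cells and 34.8, 33.4 and 29.9 TPM in R7-III. In TPM no 2 clones overlapped, and the order was R7-I, R7-III, R7-II from lowest to highest. After median-of-ratios scaling R7-I was still below both other clones, while R7-II (32.7, 36.4 and 38.5) and R7-III (35.7, 34.1 and 29.9) overlapped. Its log2 fold change was 0.72 ± 0.07 (SE, n = 3 per clone) in R7-II over R7-I, with a limma adjusted p of 1.19e-05, and 0.48 ± 0.07 in R7-III over R7-I, with a limma adjusted p of 0.00165. The log2 fold change of 0.24 in R7-II over R7-III did not pass, with a limma adjusted p of 0.0165 (range 0.0128 to 0.354 over 18 alternatives), and was 0.11 with median-of-ratios scaling and 0.09 with quantile normalization. Median-of-ratios scaling left the other values at 0.54 in R7-II over R7-I and 0.43 in R7-III over R7-I. The higher level in R7-III cells than in R7-I just missed the threshold under quantile normalization, at 0.41 with a limma adjusted p of 0.0109 (range 0.00124 to 0.0109 over 18 alternatives).

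Psme2 measured 771, 779 and 794 TPM in R7-I cells, 492, 652 and 605 TPM in R7-II cells and 908, 894 and 846 TPM in R7-III. Every R7-II library was below every library of the other clones, and R7-III lay above R7-I without overlap. The log2 fold change was -0.43 ± 0.08 (SE) in R7-II against R7-I and -0.61 ± 0.08 against R7-III, with limma adjusted p of 6.81e-04 and 6.88e-05. Both calls were kept in all 19 alternatives, and the values were -0.62 and -0.74 with median-of-ratios scaling. The value of 0.17 in R7-III over R7-I did not pass, with a limma adjusted p of 0.159.

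Psme1, the PA28 alpha subunit, which lies beside Psme2 on chromosome 14, measured 668, 702 and 687 TPM in R7-I cells, 631, 715 and 717 TPM in R7-II cells and 774, 750 and 757 TPM in R7-III. In TPM R7-I and R7-II overlapped, and R7-III was highest. After median-of-ratios scaling each R7-II library (568, 680 and 663) lay below each R7-I library (709, 742 and 718). The limma adjusted p was 0.981 for R7-II against R7-I (log2 fold change 0.00), 0.0137 against R7-III (-0.15) and 0.0424 for R7-III over R7-I (0.15). With median-of-ratios scaling the gene was lower in R7-II cells than in R7-III, at -0.28 with a limma adjusted p of 0.00194 (range 0.00194 to 0.415 over 18 alternatives).

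Psmb9, the inducible counterpart of Psmb6, measured 120, 140 and 125 TPM in R7-I cells, 82.6, 140 and 119 TPM in R7-II cells and 160, 167 and 154 TPM in R7-III. In TPM R7-III was above both other clones, and R7-II spanned the range of R7-I. After median-of-ratios scaling R7-III was still above both, and R7-II (74.4, 133 and 110) overlapped R7-I (127, 148 and 131). Psmb9 fell by 0.52 on the log2 scale in R7-II against R7-III, with a limma adjusted p of 0.00929, but 11 of 18 alternatives placed it above 0.01 (range 0.000947 to 0.0308). Its value of -0.20 in R7-II against R7-I did not pass, and ran from -0.38 to 0.01 over 18 alternatives. Psmb8, the inducible chymotrypsin-like subunit, measured 180, 203 and 168 TPM in R7-I cells, 182, 207 and 226 TPM in R7-II cells and 220, 215 and 197 TPM in R7-III. Its libraries overlapped between all pairs of clones. It did not pass in any comparison, and in TPM the 95% interval of the log2 difference between R7-II and R7-I ran from -0.03 to 0.34. Over 18 alternatives that difference ran from -0.033 to 0.238, so its sign turned. After median-of-ratios scaling R7-II (164, 197 and 209) overlapped R7-I (192, 215 and 175).

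R7-II replicate 1 was the lowest of the 3 R7-II libraries for all 5 genes. Without it, 4 genes were called higher in R7-III cells than in R7-I (Psmb10, Psmc3ip, Psme1 and Psme2) in place of 1. When only the 6 libraries of R7-I and R7-III were fitted, the higher calls were Psmb9, Psmb10, Psmc3ip, Psme1 and Psme2, and 3 of the other genes (Psmc2, Psmc5 and Psmd6) were lower. Psmb9 then stood at a log2 fold change of 0.33 with a limma adjusted p of 0.00384 (range 0.00384 to 0.350 over 18 alternatives). All 5 genes had a fold change above 0 in R7-III over R7-I in each of these fits. The shares of all genes called in these fits were not counted.

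**Figure D1:**
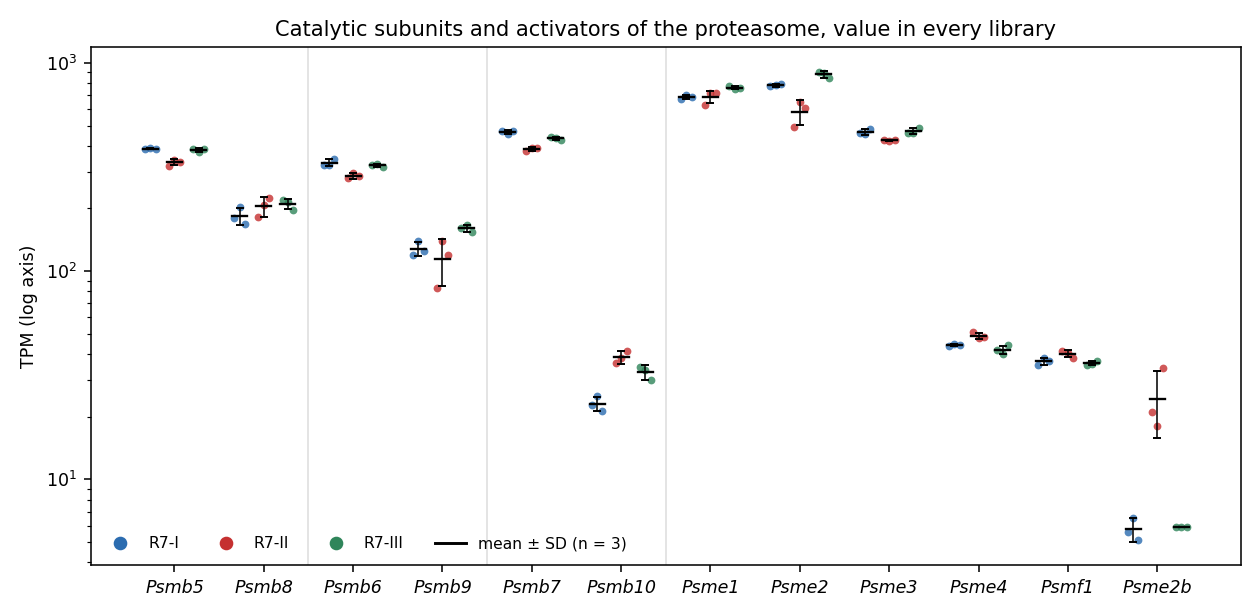
TPM (log axis) of the catalytic subunits, each inducible one beside its constitutive partner, and of the activators, Psmf1 and Psme2b, by clone. Points are libraries, and lines are the mean ± SD of 3 libraries. In TPM, Psmb10 rises from R7-I through R7-III to R7-II without overlap (R7-II and R7-III overlap after median-of-ratios scaling), while Psme2 and all 3 constitutive subunits are lowest in R7-II.

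Ratios within a library do not change when its values are multiplied by a factor. The ratio of Psmb10 to its constitutive partner Psmb7 was 0.0496 ± 0.00483 (SD, n = 3) in R7-I, 0.1003 ± 0.00583 in R7-II and 0.0753 ± 0.00440 in R7-III, with no overlap between clones. Psmb10 was the scarcest of the 3 inducible catalytic transcripts in each clone. The ratio of Psmb8 to Psmb5 was 0.475 ± 0.0447 in R7-I, 0.615 ± 0.0540 in R7-II and 0.552 ± 0.0358 in R7-III, where R7-I lay below R7-II without overlap and overlapped R7-III. The ratio of Psmb9 to Psmb6 was 0.387 ± 0.0378, 0.396 ± 0.0904 and 0.498 ± 0.0141 in the same order, and R7-III was above both other clones. Leaving out R7-II replicate 1 moved this last ratio most. In the log2 ratio, R7-II minus R7-III was -0.36 with it and -0.16 without it, and R7-II minus R7-I was 0.01 with it and 0.21 without it. The inducible subunits made up 22.0% ± 1.69 of the summed catalytic TPM in R7-I cells, 26.2% ± 2.28 in R7-II and 26.2% ± 0.82 in R7-III.

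PA28 is assembled from both of its subunits, and its transcripts were balanced differently in R7-II. Psme2 stood at 1.14 ± 0.0263 times Psme1 in R7-I and 1.16 ± 0.0388 times in R7-III, but at 0.845 ± 0.0657 times in R7-II. All 3 R7-II libraries were below 1, from 0.781 to 0.912, and the other 6 were above it. These ratios are descriptions and were not tested.

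**Figure D2:**
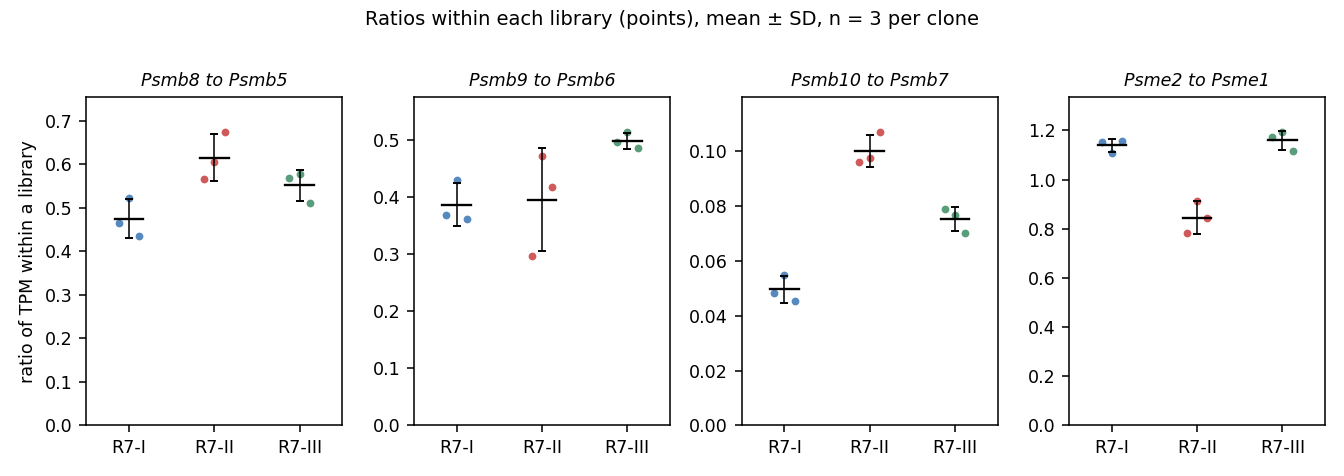
Ratio of the TPM of an inducible subunit to that of its constitutive partner, and of Psme2 to Psme1, in each library (points) by clone, with the mean ± SD of 3 libraries. The ratio of Psmb10 to Psmb7 separates all 3 clones, and that of Psme2 to Psme1 is below 1 in the R7-II libraries alone.

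Signs of other cells moved with the R7-II samples. The summed TPM of 8 B cell markers was 10.5 to 18.9 in R7-I, 43.2 to 93.4 in R7-II and 6.17 to 9.67 in R7-III, and 8 of 8 were called higher in both comparisons of R7-II. For this and the marker lists below, the shares over all genes were 40.6% higher and 15.5% lower against R7-I, and 35.6% and 18.0% against R7-III. The 7 MHC class II genes summed to 32.4 to 50.3, 112 to 183 and 24.3 to 28.1 TPM, and 7 of 7 were higher. The 9 myeloid markers summed to 5.23 to 6.02, 24.3 to 82.1 and 5.65 to 6.92 TPM, with 5 of 8 tested higher against R7-I and 7 of 8 against R7-III. Their part in the immunoproteasome levels, which such cells also express, was not tested. The 8 CD8 T cell markers summed to 2361 to 2392, 2995 to 3108 and 2663 to 2734 TPM, with 6 of 8 higher and 1 lower in R7-II against R7-I and 7 higher and 1 lower against R7-III, and Cd8a was at 339 to 452 TPM. The labels give a purity of 90 to 95% after sorting. CD4 T cell markers summed to at most 2.94 TPM and NK cell markers to at most 0.17 TPM, with Klra8 at 0 in all libraries, and erythroid markers ran from 1.09 to 25.5 TPM.

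Of the 42 tested members outside the immunoproteasome other than Psmc3ip and Psme2b, 0 were higher and 22 lower in R7-II against R7-I by limma, with 4 higher at an unadjusted p under 0.05, and 2 were higher and 17 lower against R7-III. With the immunoproteasome genes, Psmc3ip and Psme2b included, 2 of the 49 tested genes were higher and 24 lower in the first comparison, where 40.6% of all genes tested were called higher and 15.5% lower. Against R7-III, 3 were higher and 20 lower, where 35.6% of all genes were called higher and 18.0% lower. The median log2 fold change of the 49 was -0.12 and -0.06, against 0.17 and 0.12 over all genes. Between R7-III and R7-I, 1 was higher and 1 lower, where 6.96% and 1.45% of all genes were called, and the median was -0.02 against 0.04.

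The size of this group depended on the scaling. With median-of-ratios scaling, 2 genes were higher and 39 lower in R7-II cells than in R7-I, where 25.2% of all genes were called higher and 29.4% lower. Against R7-III, 1 was higher and 38 lower, where 25.0% and 28.2% of all genes were called. The medians were then -0.31 and -0.20. In R7-III against R7-I this scaling gave 1 gene higher (Psmb10) and 8 lower (Psma3, Psma6, Psmc1, Psmc2, Psmc5, Psmd1, Psmd6 and Psmd12), where 4.86% and 3.72% of all genes were called. With quantile normalization, 3 genes were higher and 16 lower than in R7-I, where 22.6% and 26.6% of all genes were called, and 3 were higher and 10 lower than in R7-III, where 24.4% and 25.1% were. The medians were then -0.07 and -0.01, against -0.02 and 0.00 over all genes. Between R7-III and R7-I quantile normalization gave 0 higher, with 2 higher at an unadjusted p under 0.05, and 2 lower (Psmc5 and Psmd6), where 3.77% and 2.25% of all genes were called by limma. In TPM, 18 genes were lower in R7-II in both comparisons. Of these, Psmb5, Psmb7, Psmc3ip, Psmc4, Psmd7, Psme2, Psmg1 and Psmg3 stayed below both other clones past the threshold in every alternative run. The shares of all genes that were lower in both, or stayed so in every run, were not counted. These joint counts therefore describe the members only.

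**Figure D3:**
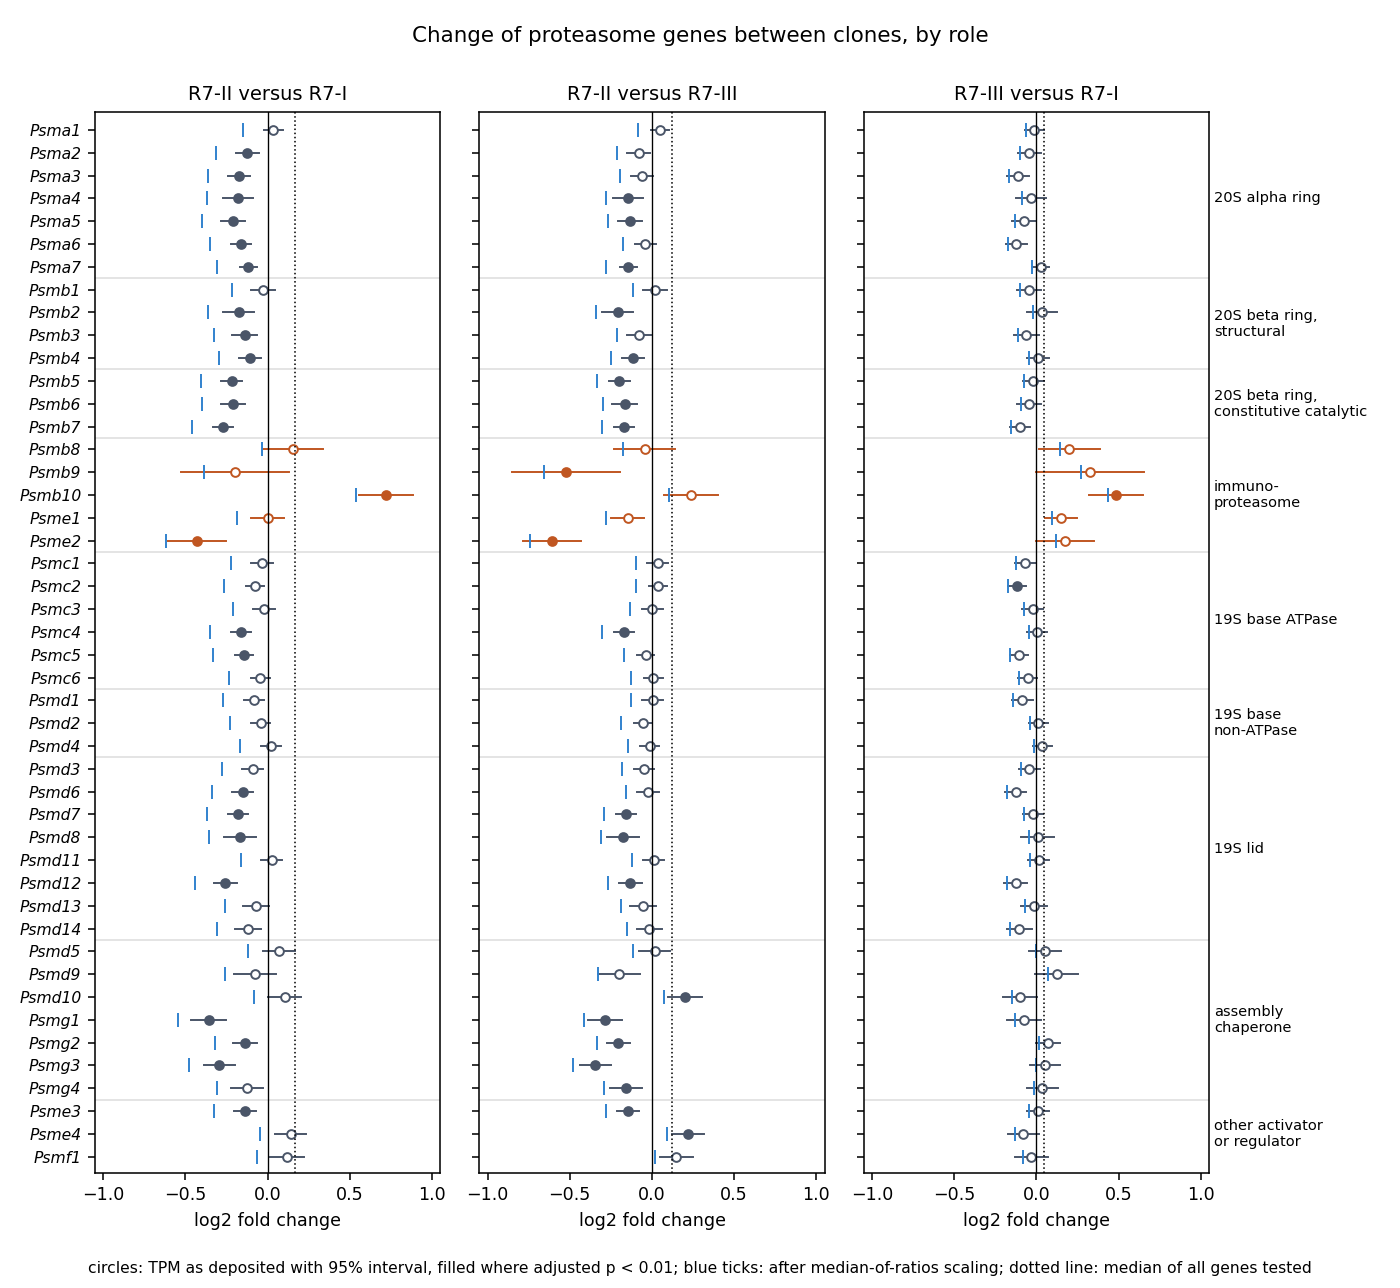
Log2 fold change of 46 proteasome genes, grouped by role, in each of the 3 comparisons. Circles are TPM values with 95% intervals, filled where the limma adjusted p is under 0.01, with the immunoproteasome genes in orange. Blue ticks are values after median-of-ratios scaling, and the dotted line is the median of all genes tested, so most members in the R7-II panels lie to its left.

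Of the alpha ring, which forms the gate of the core, 6 of 7 genes were lower in R7-II cells than in R7-I and 3 of 7 (Psma4, Psma5 and Psma7) lower than in R7-III. For this and the groups below, the shares of all genes called lower were 15.5% against R7-I and 18.0% against R7-III. Psma5 showed the largest fall against R7-I, from 362 ± 2.65 TPM (SD) to 312 ± 14.9 TPM, a log2 fold change of -0.21 with a limma adjusted p of 2.08e-04, and -0.40 with median-of-ratios scaling. Psma4 fell by 0.15 on the log2 scale against R7-III, with a limma adjusted p of 0.00977, a call kept in 6 of 18 alternatives (range 0.00146 to 0.0792). Psma1 was the exception, at 324 ± 1.92 TPM in R7-I cells, 332 ± 4.05 TPM in R7-II cells and 321 ± 7.39 TPM in R7-III. Its log2 fold changes in R7-II of 0.04 and 0.05 did not pass, and they became -0.15 and -0.09 with median-of-ratios scaling and 0.08 and 0.10 with quantile normalization, where both passed as higher. Between R7-III and R7-I the 7 genes ranged from -0.12 (Psma6) to 0.03 (Psma7), and limma called 0 of them, with 3 lower at an unadjusted p under 0.05.

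Of the structural beta subunits, Psmb2, Psmb3 and Psmb4 were lower in R7-II cells than in R7-I, and Psmb2 and Psmb4 lower than in R7-III. The calls against R7-I were kept in 12 of 18 alternatives for Psmb2, 12 for Psmb3 and 5 for Psmb4, whose limma adjusted p ran up to 0.465. Against R7-III they were kept in 17 for Psmb2 and 10 for Psmb4, up to 0.769. Psmb2 measured 381, 387 and 365 TPM in R7-I cells, 324, 351 and 328 TPM in R7-II cells and 377, 374 and 408 TPM in R7-III. Its log2 fold changes of -0.18 and -0.21 were the lowest of the 4 genes in both comparisons. Psmb1 did not pass, at -0.03 and 0.02. In R7-III against R7-I the group ran from -0.06 (Psmb3) to 0.03 (Psmb2).

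All 3 constitutive catalytic subunits were lower in R7-II in both comparisons. Psmb5, the chymotrypsin-like subunit, measured 387, 388 and 386 TPM in R7-I cells, 321, 342 and 335 TPM in R7-II cells and 387, 373 and 386 TPM in R7-III. Psmb6, with caspase-like activity, measured 325, 325 and 346 TPM, 279, 296 and 285 TPM, and 323, 326 and 317 TPM in the same order. Psmb7, with trypsin-like activity, measured 471, 456 and 471 TPM, 377, 391 and 389 TPM, and 442, 436 and 424 TPM. For each of them the R7-II libraries lay below all others. The log2 fold changes against R7-I were -0.22 ± 0.03 (SE) for Psmb5, -0.21 ± 0.03 for Psmb6 and -0.27 ± 0.03 for Psmb7, and against R7-III they were -0.20, -0.17 and -0.17. The largest limma adjusted p of these was 0.00113. With median-of-ratios scaling the values were -0.41, -0.40 and -0.46 against R7-I and -0.33, -0.30 and -0.30 against R7-III. Over the 18 alternatives those against R7-I ran from -0.41 to -0.17 for Psmb5, -0.40 to -0.15 for Psmb6 and -0.46 to -0.21 for Psmb7. Between R7-III and R7-I, Psmb5 and Psmb6 overlapped in TPM, while Psmb7 was lower in each R7-III library but did not pass, at -0.10 with a limma adjusted p of 0.0255. After median-of-ratios scaling all 3 genes were lower in R7-III without overlap. The limma adjusted p was then and in the other alternatives at least 0.240 for Psmb5 and 0.141 for Psmb6.

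Of the 6 ATPases of the 19S base, which unfold substrates, 2 were lower in R7-II cells than in R7-I (Psmc4 and Psmc5) and 1 lower than in R7-III (Psmc4). Of all genes tested, 15.5% and 18.0% were called lower, so the count against R7-III was near the background. Psmc4 was lower in R7-II at 298 ± 6.92 TPM (SD), against 333 ± 4.53 TPM in R7-I cells and 335 ± 6.61 TPM in R7-III cells, with log2 fold changes of -0.16 and -0.17, or -0.35 and -0.30 with median-of-ratios scaling. Psmc5 was at -0.15 against R7-I and at -0.04 against R7-III, where it did not pass. The difference between these comparisons was not tested. Psmc3 had the value nearest to 0 against R7-I, at -0.02, and Psmc2 the highest against R7-III, at 0.04. In TPM, Psmc2 was the only proteasome gene called lower in R7-III cells than in R7-I, at 238 ± 0.272 against 258 ± 4.53 TPM, with a limma adjusted p of 0.00941. That call was kept in 8 of 18 alternatives.

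Of the non-ATPase subunits of the base that are members by the name pattern, Psmd1 and Psmd2 are scaffolds and Psmd4 is a ubiquitin receptor. Limma called 0 of the 3 in any comparison, with 1 lower at an unadjusted p under 0.05 in R7-II against R7-I and 1 in R7-III against R7-I. All 3 were called lower in both comparisons of R7-II with median-of-ratios scaling. Psmd1 was at -0.08 and Psmd4 at 0.02 in R7-II against R7-I, and against R7-III Psmd2 was at -0.06 and Psmd1 at 0.00. In R7-III against R7-I, Psmd1 was at -0.09 and Psmd4 at 0.04.

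The lid, which holds the deubiquitinase Psmd14, had 4 of 8 member genes lower in R7-II cells than in R7-I (Psmd6, Psmd7, Psmd8 and Psmd12) and 3 lower than in R7-III (Psmd7, Psmd8 and Psmd12). The shares over all genes were 15.5% and 18.0% lower. Psmd12 measured 205, 204 and 195 TPM in R7-I cells, 168, 165 and 171 TPM in R7-II cells and 181, 184 and 189 TPM in R7-III. The 3 clones did not overlap. Its log2 fold change against R7-I of -0.26 had a limma adjusted p of 3.71e-05, and that against R7-III of -0.13 had one of 0.00355. Median-of-ratios scaling gave -0.44 and -0.26. Against R7-III the lowest value was that of Psmd8, at -0.18. The Psmd8 calls were kept in 8 of 18 alternatives against R7-I and in 10 against R7-III, with limma adjusted p of up to 0.0288 and 0.0289. Psmd11 was the highest in both, at 0.02 and 0.01, and turned to -0.16 and -0.12 with median-of-ratios scaling. Psmd6 was the lowest of the lid in R7-III against R7-I, at -0.13 with a limma adjusted p of 0.0138.

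Summed over the 14 constitutive core genes, the level was 5894 ± 44.6 TPM (SD) in R7-I, 5319 ± 146 TPM in R7-II cells and 5733 ± 14.7 TPM in R7-III. The 17 genes of the 19S particle that the name pattern takes in summed to 4657 ± 4.68, 4362 ± 45.3 and 4522 ± 59.9 TPM. Of these 31 genes, limma called 18 lower in R7-II cells than in R7-I and 12 lower than in R7-III, and 0 higher in either, with 0 higher at an unadjusted p under 0.05. Over all genes tested, 15.5% and 18.0% were called lower and 40.6% and 35.6% higher. With median-of-ratios scaling 31 and 28 were lower, where 29.4% and 28.2% of all genes were called lower. All 31 values were then below 0 in both comparisons, also for genes given above with values above 0. With quantile normalization 10 and 4 were lower, and 1 and 2 were higher (Psma1 in both, Psmc2 against R7-III). Of all genes, 26.6% and 25.1% were then called lower and 22.6% and 24.4% higher, so the 4 lower against R7-III were not above the background.

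The core chaperones Psmg1 and Psmg3 had larger falls in R7-II than any of the 31 constitutive 20S and 19S genes, whose lowest log2 fold changes were -0.27 against R7-I and -0.21 against R7-III. Psmg1, which pairs with Psmg2 to build the alpha ring, measured 111, 111 and 107 TPM in R7-I cells, 80.04, 90.57 and 85.27 TPM in R7-II cells and 105, 99.8 and 107 TPM in R7-III. Psmg3, which pairs with Psmg4, measured 100, 107 and 99.3 TPM, 80.7, 87.6 and 81.6 TPM, and 108, 103 and 107 TPM in the same order. The R7-II libraries of both genes lay below all others. Psmg1 was at -0.36 and -0.28 on the log2 scale against R7-I and R7-III, and Psmg3 at -0.29 and -0.35, with the largest limma adjusted p at 3.30e-04. With median-of-ratios scaling Psmg1 was at -0.55 and -0.42 and Psmg3 at -0.48 in both. Psmg2 was lower in both comparisons (-0.14 and -0.20), and Psmg4 was lower than in R7-III (-0.16) but did not pass against R7-I (-0.12). The Psmg4 call was kept in 6 of 18 alternatives, with a limma adjusted p of up to 0.0339.

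The 3 chaperones of the 19S base did not share a direction. Psmd10, also known as gankyrin, was higher in R7-II cells than in R7-III, at 45.0 ± 1.71 against 39.0 ± 1.98 TPM (SD), a log2 fold change of 0.20 with a limma adjusted p of 0.00287. With median-of-ratios scaling the value was 0.07 and did not pass, and the gene overlaps Atg4a, which was also higher. Psmd5 was at 0.07 and 0.02 and Psmd9 at -0.08 and -0.20, and neither passed. With median-of-ratios scaling Psmd5 turned to -0.12 in both comparisons, and Psmd9 was lower at -0.26 and -0.33. In R7-III against R7-I the chaperones ran from -0.10 (Psmd10) to 0.12 (Psmd9).

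Of the other activators and regulators, Psme3, which forms the nuclear PA28 gamma, measured 467 ± 13.6 TPM (SD) in R7-I, 424 ± 3.52 TPM in R7-II cells and 470 ± 14.3 TPM in R7-III. It was lower in R7-II in both comparisons, at -0.14 and -0.15 on the log2 scale with limma adjusted p of 0.00211 and 0.00142, and at -0.32 and -0.28 with median-of-ratios scaling. Psme4, the PA200 activator, was higher in R7-II cells than in R7-III, at 49.0 ± 1.61 against 42.0 ± 1.94 TPM, a log2 fold change of 0.22. That call was lost with median-of-ratios scaling, at 0.09, and the gene overlaps Erlec1, which was also higher. Psmf1, an inhibitor of the core, was at 0.12 and 0.15 in R7-II and did not pass, and with median-of-ratios scaling it was at -0.07 and 0.02.

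**Figure D4:**
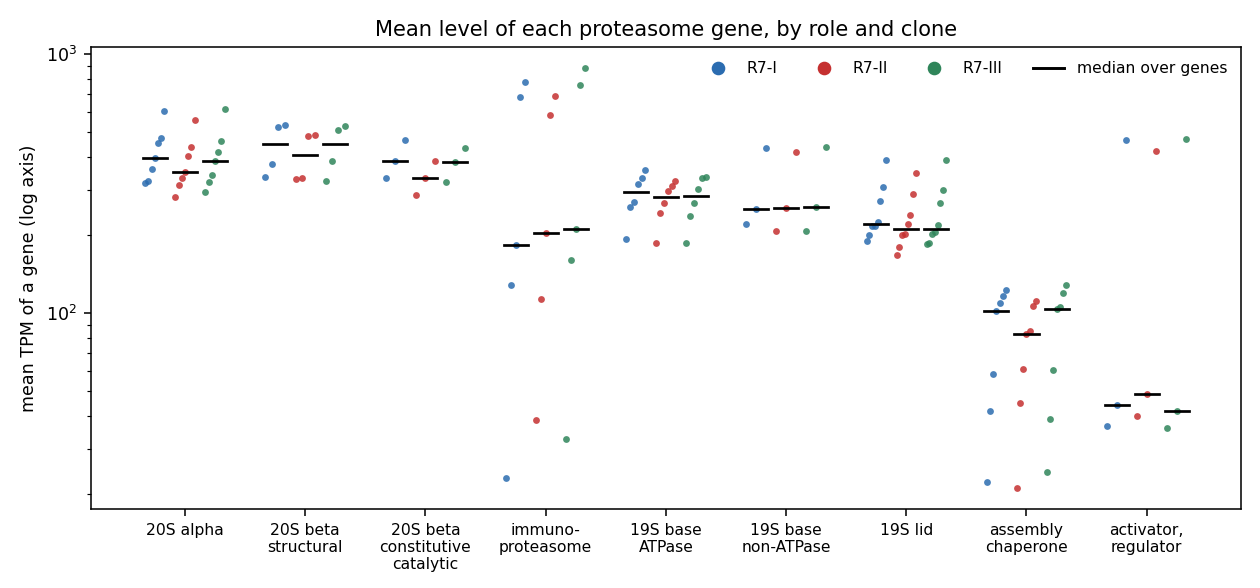
Mean TPM (log axis) of each proteasome gene (points) by role and clone, with the median over the genes of a role as a line. Levels of the constitutive core and 19S genes lie between 168 and 617 TPM in all 3 clones, and the chaperones, Psme4, Psmf1, Psmb9 and Psmb10 lie lower.

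On the log2(TPM + 1) scale, Psmc3ip and Psme2b had the largest fold changes of R7-II among the 49 tested genes. Psmc3ip measured 42.3, 36.7 and 38.3 TPM in R7-I cells, 18.2, 23.8 and 22.0 TPM in R7-II cells and 47.2, 49.3 and 46.2 TPM in R7-III. The R7-II libraries were the lowest and the R7-III libraries the highest, with no overlap. In R7-II it fell by 45.5% against R7-I and by 55.2% against R7-III, at -0.85 and -1.13 on the log2 scale with limma adjusted p of 1.03e-05 and 1.46e-06. The gene overlaps Mlx, which stood at -0.05 and 0.03 in the same comparisons.

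Psme2b was higher in R7-II, at 21.04, 17.98 and 34.22 TPM against 5.62, 6.56 and 5.10 TPM in R7-I cells and 5.90, 5.89 and 5.94 TPM in R7-III. The log2 fold changes were 1.86 and 1.83. Its span on chromosome 11 lies within 9930111J21Rik1, which measured 5.44 ± 0.693, 26.9 ± 5.94 and 5.66 ± 0.542 TPM (SD) in the 3 clones. Reads of the unstranded library can be shared with that gene and with Psme2, so the value of Psme2b is uncertain. Adding Psme2b to Psme2 left the pair lower in R7-II, at -0.38 and -0.56 on the log2 scale. Psmb11 stood at 0.43 against R7-I and did not pass.

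The members varied little between replicates. Over the 38 proteasome genes with a mean of at least 100 TPM, the median coefficient of variation within a clone was 1.74% in R7-I, 2.68% in R7-II and 1.96% in R7-III. It was 2.39%, 3.29% and 2.27% over the 1741 genes with such a mean. For the 4 immunoproteasome genes in that range it was 5.32%, 12.4% and 3.91%. Levels within a role kept most of their order, with Psma3 lowest and Psma7 highest of the alpha ring and Psmb6 lowest and Psmb7 highest of the constitutive catalytic subunits in every clone. The highest member of all was Psme2 in R7-I and R7-III and Psme1 in R7-II.

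By position, the 50 genes lay on 16 chromosomes, 14 of them overlapping another gene and 8 a gene that was tested. Psmb5, Psmb11, Psme1 and Psme2 lay 0.39, 0.40, 1.35 and 1.36 Mb from the T cell receptor alpha locus (chr14:52427928-54224206), the only members within 5 Mb of it. Psme1 overlaps Emc9, which was higher in R7-II at 6.45 ± 0.0611 TPM (SD), against 1.49 ± 0.185 TPM in R7-I. That gene was far below the level of Psme1.

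Of 18 assembly factors, bound cofactors and regulators, 4 were higher and 3 lower in R7-II cells than in R7-I, where 40.6% of all genes tested were called higher and 15.5% lower. Against R7-III 5 were higher and 4 lower, where 35.6% and 18.0% of all genes were called. With median-of-ratios scaling, 3 were higher and 10 lower than in R7-I, where 25.2% and 29.4% of all genes were called, and 4 higher and 7 lower than in R7-III, where 25.0% and 28.2% were. Ngly1, which activates Nfe2l1, rose from 18.0 ± 1.15 TPM (SD) in R7-I to 30.6 ± 0.852 TPM in R7-II cells, a log2 fold change of 0.73, and was 0.61 higher than in R7-III. Uchl5, a deubiquitinase bound to the 19S particle, measured 123 ± 6.47 TPM in R7-I cells, 85.3 ± 3.18 TPM in R7-II cells and 115 ± 0.859 TPM in R7-III cells, at -0.52 and -0.43. Nfe2l1, the factor known to induce proteasome genes, was at 0.10 against R7-I, or -0.09 with median-of-ratios scaling, and passed in neither. The related factor Nfe2l2 was higher in R7-II in both comparisons, at 0.65 and 0.44, and at 0.47 and 0.31 with median-of-ratios scaling. Pomp, needed to mature the core, was lower than in R7-III, at -0.18, and stood at -0.14 against R7-I, where it did not pass. With median-of-ratios scaling Pomp was called lower in both comparisons, at -0.31 against R7-III and -0.33 against R7-I. In TPM no factor of this list was called by limma between R7-III and R7-I, with 3 higher and 1 lower at an unadjusted p under 0.05, and the values ran from -0.13 (Zfand5) to 0.21 (Nfe2l2). With median-of-ratios scaling Usp14 was lower in R7-III, at -0.18 with a limma adjusted p of 0.00502.

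Of 15 ubiquitin genes, shuttles and enzymes, 4 were higher and 0 lower in R7-II cells than in R7-I by limma, with 1 lower at an unadjusted p under 0.05, against 40.6% and 15.5% of all genes. Against R7-III, 3 were higher and 1 lower, against 35.6% and 18.0% of all genes. Median-of-ratios scaling turned these splits to 2 higher and 10 lower against R7-I (all genes 25.2% and 29.4%), and 2 higher and 7 lower against R7-III (25.0% and 28.2%). The lowest log2 fold changes of R7-II were those of Ubqln1 against R7-I, at -0.08, which did not pass, and of Rad23b against R7-III, at -0.16, which passed. In TPM, limma called 0 of the 15 between R7-III and R7-I, with 4 higher and 2 lower at an unadjusted p under 0.05, from -0.12 (Rps27a) to 0.16 (Nub1). With median-of-ratios scaling Ubqln1 was lower in R7-III, at -0.17 with a limma adjusted p of 0.00438.

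Of 12 genes that carry the peptides on to MHC class I, 5 were higher, among them Tap1, Tap2, Tapbp and B2m, and 3 lower (Calr, Canx and Pdia3) in R7-II cells than in R7-I, and 4 were higher (Tap2, Tapbp, B2m and Nlrc5) and 3 lower (Tapbpl, Erap1 and Calr) than in R7-III. The shares over all genes were 40.6% higher and 15.5% lower against R7-I and 35.6% and 18.0% against R7-III, so the higher calls of this list were near the background. Tapbp, which encodes tapasin, measured 116, 130 and 121 TPM in R7-I cells, 198, 223 and 234 TPM in R7-II cells and 157, 163 and 152 TPM in R7-III. No 2 clones overlapped and the order was R7-I, R7-III, R7-II, also after median-of-ratios scaling. Its log2 fold change was 0.83 in R7-II over R7-I, 0.47 over R7-III and 0.36 in R7-III over R7-I, the last with a limma adjusted p of 0.00253. The lowest values were those of Calr against R7-I (-0.32), Tapbpl against R7-III (-0.36) and Nlrc5 in R7-III against R7-I (-0.20, not past the threshold). Irf1, an interferon-induced factor known to act on these genes, was at 0.10 in R7-II over R7-I and did not pass. With median-of-ratios scaling the values of Tap1 over R7-I, of Nlrc5 over R7-III and of Tapbp in R7-III over R7-I no longer passed, and 3 of the 12 were higher and 5 lower in each comparison of R7-II, where the shares over all genes were 25.2% and 29.4% against R7-I and 25.0% and 28.2% against R7-III.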

How the data were processed

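RNA of sorted, ROP7 peptide-activated CD8 T cells was sequenced, with 3 libraries per clone and 9 in all. TPM values, rounded to 2 decimals, were deposited by the authors, who had both aligned and counted the reads with RSEM 1.2.11 on mm10 RefSeq models. DESeq2 1.8.1 served the authors for tests on counts, and those counts and the unstimulated samples were not analysed here. TPM keeps no depth.

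From the deposited TPM, log2(TPM + 1) was fitted with limma 3.58.1 in R 4.3.3 (eBayes with trend) for the 11330 genes whose highest TPM exceeded 1, with the 9 libraries in a single fit. P-values were adjusted by Benjamini-Hochberg over all genes tested, with a threshold of 0.01. Fold changes on this scale understate those of genes with a low TPM. The fit was tested on simulated data. Promoters and positions are from RefSeq (GRCm38.p6, the build of mm10), and all 50 genes had a position. Ratios were computed within a library with pandas 2.3.3 in Python 3.11.15.

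The members, lists and tests were chosen with earlier results of these data known. The genes named are the immunoproteasome genes, their constitutive partners, the activators, Psma8, Psmb11, Psmc3ip and Psme2b, the highest and lowest change in each role, members called against their group or between R7-III and R7-I, and the highest and lowest of each partner list. Partners over 2-fold were also to be named, and there was none. Some genes of the partner lists are not reported here by name. Other genes named were chosen after their values were seen. Alternatives were pseudocounts of 0.1 and 5, no filter, a filter asking for 1 TPM throughout, median-of-ratios scaling, quantile normalization, no trend, fits restricted to both clones compared, a block for replicate number, a threshold of 0.05 and leaving out each library. Adding Psme2b to Psme2 was chosen after seeing the data. Paaf1, on the list of assembly factors, was not matched in the table.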

Additional observations from a re-analysis of the deposited data

How the results depend on the processing

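Pseudocounts and filters left all 6 counts of called proteasome genes within 1.5 times. With median-of-ratios scaling, 39 genes were lower in R7-II cells than in R7-I, 1 was higher and 38 lower than in R7-III, and 8 were lower in R7-III than in R7-I. With quantile normalization, 10 were lower in R7-II cells than in R7-III, and 0 were higher and 2 lower in R7-III than in R7-I. Without the trend, 15 and 12 were lower in R7-II cells than in R7-I and R7-III, and 0 were lower in R7-III than in R7-I. With only the 6 libraries compared, 5 were higher and 3 lower in R7-III than in R7-I. A threshold of 0.05 gave 5 higher in R7-II in each comparison, and 3 higher and 7 lower in R7-III than in R7-I. The cause was not tested. Shares over all genes are given above for median-of-ratios scaling and quantile normalization. They were not counted for the other settings, nor for the leave-out and block fits below. Those counts therefore describe the members only and cannot be set against all genes.

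Leaving out 1 library gave 2 higher and 17 to 25 lower for R7-II against R7-I, 2 to 3 higher and 14 to 22 lower against R7-III, and 1 to 4 higher and 0 to 2 lower for R7-III against R7-I. The 4 came without R7-II replicate 1 and the 2 without R7-II replicate 2. The count of 0, where Psmc2 was lost, came without any 1 of the R7-I replicates 1, 2 and 3 and the R7-III replicates 1 and 2. The log2 ratio of Psmb10 to Psmb7 stayed between 0.96 and 1.09 in R7-II minus R7-I, 0.37 and 0.45 in R7-II minus R7-III, and 0.54 and 0.68 in R7-III minus R7-I. That of Psmb8 to Psmb5 ran from 0.31 to 0.45, 0.09 to 0.21 and 0.16 to 0.29 in the same order, and that of Psmb9 to Psmb6 from -0.13 to 0.21, so its sign turned, -0.50 to -0.16, and 0.32 to 0.45. The lowest of these for Psmb9 to Psmb6 in R7-II came without R7-II replicate 2 and the highest without R7-II replicate 1. The Psmb8 to Psmb5 difference of 0.15 between R7-II and R7-III was 0.09 without R7-II replicate 3 and 0.10 without R7-III replicate 3.

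With median-of-ratios scaling, 8 values that had not passed changed sign and passed as lower in R7-II: Psma1 (-0.15), Psmd11 (-0.16) and Psmd4 (-0.17) against R7-I, and Psmc1 (-0.10), Psmc3 (-0.13), Psmc6 (-0.13), Psmd1 (-0.13) and Psmd11 (-0.12) against R7-III.

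Same-numbered replicates of different clones correlated at -0.0449 to 0.0888 in their deviations from the clone means, and 3 of 9 libraries correlated best with one of their own number, so the numbers were not taken to pair the samples. With the replicate number as a block, 2 were higher and 21 lower in R7-II cells than in R7-I, 3 and 16 against R7-III, and 1 and 0 in R7-III against R7-I. With no counts, depth could not be used to grade the genes, and levels near 1 TPM, as in Psmb11 and Psma8, are the least certain.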
